A study of Sus scrofa with 6 samples.

Results

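The 10 genes described here, Wif1, Sfrp1, Sfrp2, Sfrp4, Notum, Dkk2, Apcdd1, Rspo1, Rspo4 and Wnt16, act on Wnt signalling at or outside the cell surface. They were matched by exact symbol to 10 of the 32285 gene features of 6 single-cell RNA sequencing libraries, and each symbol matched 1 feature. They were chosen by their UMI counts across these libraries and cell classes, with those values already known, so their counts and levels are descriptions and no test was made on them. By the labels, the libraries came from unsorted skin cells of red duroc pigs, with 1 library per label. The groups were irradiated skin with a 1 mg DFO TDDS patch (DFO is deferoxamine, an iron chelator) on 4 schedules, irradiated skin without a patch, and normal skin. The schedules were named pretreatment (2 weeks before radiotherapy), continuous (18 weeks in all), acute (labelled with 12 weeks of recovery) and chronic (labelled with 4 weeks after recovery). Radiation dose, animal age and sex, and the number of animals in a library were not given in the sources used here. All 32285 gene features were mouse identifiers, against the pig labels, so libraries are called by their labels and a difference between labels is not ascribed to a treatment.

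Wnt proteins are lipid-modified ligands that bind Frizzled receptors with the coreceptors Lrp5 and Lrp6 and stabilise beta-catenin, which then drives genes such as Axin2 and Lef1. Wif1 and the Sfrp proteins bind Wnt ligands outside the cell, Notum removes the lipid that Wnt needs to bind its receptor, and Dkk2 binds the Lrp coreceptors. R-spondins act through Lgr receptors and keep Frizzled at the surface, which raises the response to Wnt. In skin the pathway is known for its part in hair follicle formation and cycling and in dermal fibroblast identity. Of the set, Apcdd1 is a membrane-bound inhibitor and not a secreted protein, so the name secreted Wnt modulators does not cover it.

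A cell was called fibroblast-gated when the share of detected markers was highest for the fibroblast list, with at least 3 detected. This gave 574 cells in pretreatment, 660 cells in continuous, 2278 cells in acute, 402 cells in chronic, 1853 cells in irradiated and 2484 in normal, which held 3344066 to 11097369 gene UMIs (unique molecular identifiers, counts of captured transcripts). All 10 fibroblast markers were detected in each library, at a summed 35536 to 67630 CPM (gene UMIs scaled to a common total of the summed cells, as counts per 1000000). Cell depth differed, with a median of 11083 UMIs per fibroblast-gated cell in pretreatment and 8719 in continuous, against 3538.5 in acute, 7105 in chronic, 4601 in irradiated and 3755.5 in normal. The 10 neutrophil markers summed to 19.0 CPM in fibroblast-gated cells of pretreatment, with 1 of 10 at 0, and to 1935 to 4123 CPM in the other libraries, with none at 0. Hashtag antibodies were counted in 4 libraries and not in pretreatment or continuous, so in those 2 comparisons with irradiated the label and the way the library was made cannot be told apart. Library pairs shared 3 to 153 cell barcodes, at most 0.773% of the smaller library. Bracketed ranges are 95% intervals for counting error only. Each of the 4 libraries with hashtags held 4 tags, and no source used here says what a tag marks. A cell was given to a tag with at least 10 UMIs of it and 3 times those of the next. The tag with most fibroblast-gated cells took 11 of 2278 in acute, 284 of 402 in chronic, 173 of 1853 in irradiated and 2370 of 2484 in normal, and all tags together took 20 of 2278, 285 of 402, 177 of 1853 and 2372 of 2484 in the same libraries. In chronic and normal most fibroblast-gated cells thus carried 1 tag, and how many animals these sums stand for is not known. Cells of a library are not replicates, and no spread between animals could be had.

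Fibroblast-gated cells were 4.38% to 38.3% of kept cells and held 86.9% to 100% of all Sfrp4 UMIs, 90.7% to 98.9% of Sfrp2 and 90.0% to 100% of Rspo4. Sfrp1 and Wif1 were less concentrated there, at 62.2% to 88.7% and 41.5% to 82.0%, and keratinocyte-gated cells carried both genes too. The share was 39.8% to 94.6% for Apcdd1, 44.7% to 97.6% for Notum, 58.4% to 99.0% for Rspo1, 61.2% to 95.02% for Dkk2 and 66.7% to 90.8% for Wnt16. Wif1 and Apcdd1 in acute and irradiated, and Notum in acute and normal, had under 50% of their UMIs in fibroblast-gated cells. Every member is shown as sums over fibroblast-gated cells in the plot of levels by library.

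**Figure D1:**
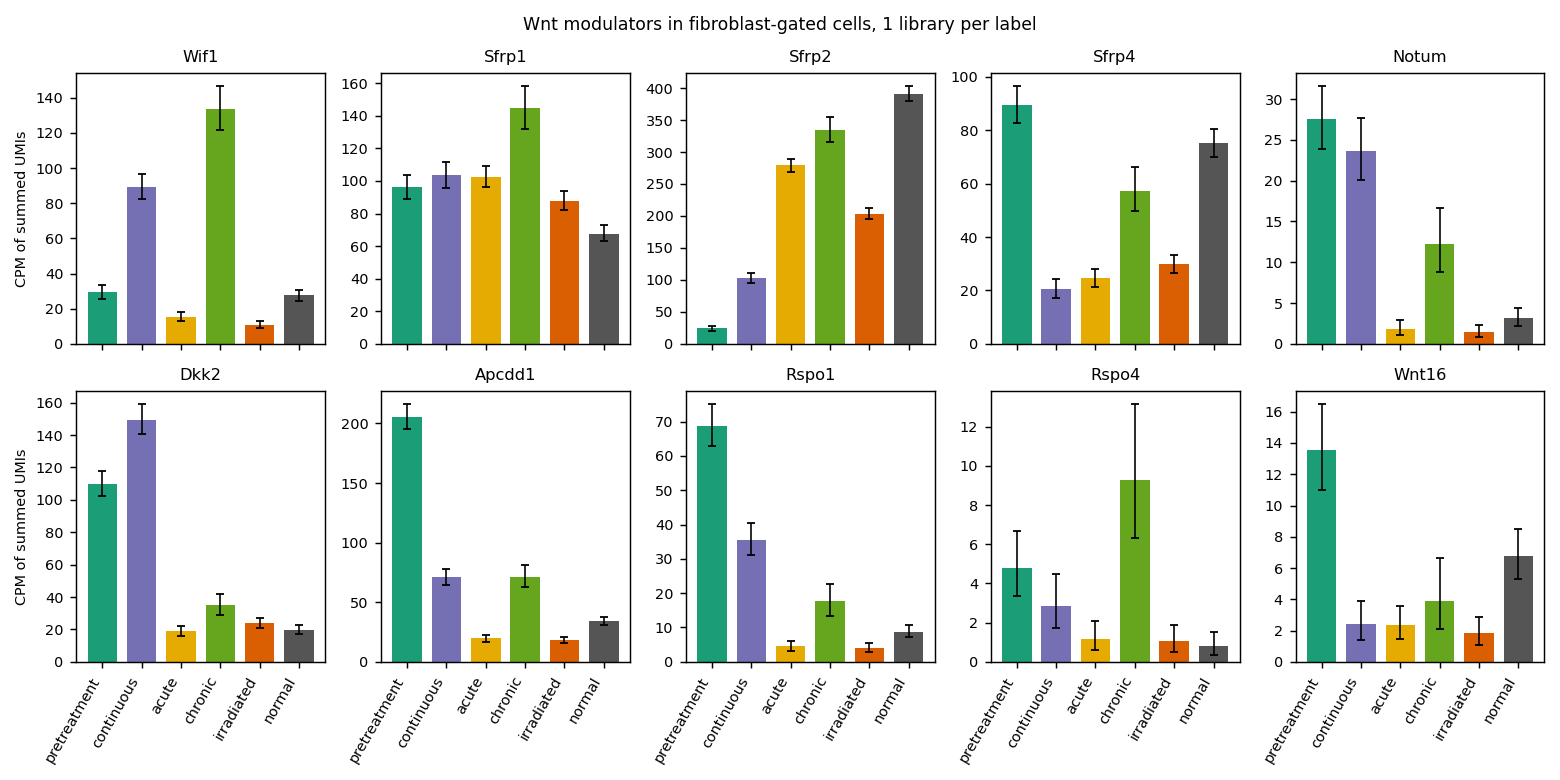
Level of each of the 10 genes in fibroblast-gated cells (CPM of summed UMIs, vertical axis from 0, own scale per gene) in the 6 libraries, 1 bar per library. Black lines are 95% Poisson intervals for counting error. Wif1 reached 134 CPM in chronic, against 11.0 in irradiated, while Sfrp2 was highest in normal at 391 CPM.

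Wif1, a secreted inhibitor that binds Wnt ligands, had 29.3 CPM in pretreatment, 89.2 in continuous, 15.2 in acute, 134 in chronic, 11.0 in irradiated and 27.6 in normal. Chronic and continuous stood highest and irradiated lowest, and pretreatment and normal did not differ beyond counting error. Without the highest cell of each library, Wif1 had 63.8 CPM in chronic and 83.8 in continuous, so their order rested on 1 cell of chronic. Each cell was also thinned to 1000 UMIs to set depth equal. The share of fibroblast-gated cells with a Wif1 UMI was then 7.74% (49 of 633) in continuous, 4.59% (18 of 392) in chronic, 2.39% (13 of 545) in pretreatment, 1.28% (26 of 2038) in acute, 1.38% (23 of 1669) in irradiated and 2.48% (56 of 2258) in normal. At matched depth continuous, not chronic, held the highest share. Before thinning the shares were 17.3% in continuous, 9.20% in chronic, 9.06% in pretreatment, 2.46% in acute, 2.59% in irradiated and 3.70% in normal. In macrophage or monocyte-gated cells, which should lack the gene, the thinned share ran from 0% in pretreatment to 0.133% (3 of 2251) in continuous, at median depths of 14112 and 4939.5 UMIs.

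The 3 secreted Frizzled-related proteins, decoys that bind Wnt through a Frizzled-like domain, did not share a pattern. Sfrp1 was the most even member, with 96.2 CPM in pretreatment, 104 in continuous, 103 in acute, 145 in chronic, 87.7 in irradiated and 67.7 in normal. Continuous was 1.18-fold above irradiated, with acute and pretreatment between them. Sfrp2 was the most abundant member in 4 libraries, with 24.2 CPM in pretreatment, 103 in continuous, 279 in acute, 335 in chronic, 203 in irradiated and 391 in normal. Normal and chronic were highest, and pretreatment was lowest, also without the highest cell of each library, at 12.9 CPM in pretreatment and 384 in normal. The thinned share of fibroblast-gated cells with an Sfrp2 UMI was 1.47% (8 of 545) in pretreatment and 3.79% (24 of 633) in continuous, against 16.4% (335 of 2038) in acute, 19.1% (75 of 392) in chronic, 13.2% (220 of 1669) in irradiated and 22.4% (506 of 2258) in normal. In neutrophil-gated cells the same share reached 1.01% (43 of 4265) in normal, at a median of 1090 UMIs and under the 22.4% of fibroblast-gated cells of that library, whose median was 3755.5 UMIs. Sfrp4 had 89.4 CPM in pretreatment, 20.6 in continuous, 24.5 in acute, 57.4 in chronic, 29.9 in irradiated and 75.2 in normal. Here pretreatment and normal were both high, while irradiated, acute and continuous were all low.

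Notum, the secreted enzyme that strips the lipid from Wnt, was rare, with 27.5 CPM in pretreatment, 23.6 in continuous, 1.81 in acute, 12.3 in chronic, 1.44 in irradiated and 3.15 in normal. These sums rested on 201 UMIs in pretreatment and 157 in continuous, against 17 in acute, 41 in chronic, 15 in irradiated and 35 in normal. Pretreatment and continuous did not differ beyond counting error, nor did acute and irradiated. Dkk2, which binds the Lrp coreceptors, had 109.7 CPM in pretreatment, 149.6 in continuous, 18.8 in acute, 35.0 in chronic, 23.9 in irradiated and 19.8 in normal. Continuous and pretreatment stood well above the other 4, and pretreatment over chronic was 3.14-fold (2.58 to 3.84). Apcdd1, the membrane-bound inhibitor, had 206 CPM in pretreatment, 71.0 in continuous, 19.7 in acute, 71.5 in chronic, 18.1 in irradiated and 33.9 in normal. In pretreatment it was found in 59.1% of fibroblast-gated cells, and in 16.0% (87 of 545) after thinning, against 7.29% and 1.62% (27 of 1669) in irradiated.

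Among the genes that promote Wnt signalling, Rspo1 had 68.8 CPM in pretreatment, 35.5 in continuous, 4.47 in acute, 17.6 in chronic, 4.12 in irradiated and 8.83 in normal. Its order over libraries followed that of Apcdd1 apart from chronic and continuous, with pretreatment highest and irradiated and acute lowest. The thinned share with an Rspo1 UMI was 6.42% (35 of 545) in pretreatment and 0.539% (9 of 1669) in irradiated. Rspo4, another R-spondin, had the fewest UMIs over all libraries together, with 4.79 CPM in pretreatment, 2.86 in continuous, 1.17 in acute, 9.27 in chronic, 1.05 in irradiated and 0.811 in normal, from 9 to 35 UMIs per library. In continuous and chronic Wnt16 had fewer. Wnt16, the only Wnt ligand of the set, had 13.5 CPM in pretreatment, 2.41 in continuous, 2.34 in acute, 3.89 in chronic, 1.82 in irradiated and 6.76 in normal. Pretreatment stood 2.00-fold (1.47 to 2.74) above normal, and from normal through chronic, continuous and acute down to irradiated no library differed from its neighbour beyond counting error.

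For several of these sums a single cell weighed heavily. In chronic, 1 cell held 235 of 447 Wif1 UMIs, or 52.6%. That cell had 20503 UMIs in all, with 7 fibroblast markers and 4 macrophage markers detected. In pretreatment, 1 cell held 83 of 177 Sfrp2 UMIs and another 60 of 201 Notum UMIs. In irradiated, 1 cell with 8 fibroblast and 8 keratinocyte markers held 8 of 15 Notum UMIs and was also the highest for Wif1. In chronic, 1 cell held 14 of 31 Rspo4 UMIs. The intervals treat UMIs as independent and are therefore too narrow where 1 cell holds much of a sum. Leaving out the highest cell of each library moved the ratio of Notum by over 1.5 times in irradiated against normal and in pretreatment and continuous against irradiated, that of Sfrp2 in pretreatment against irradiated and that of Wif1 in chronic against irradiated. Both values are given for these. Notum in acute against irradiated moved too, and is given there by its levels because under 20 UMIs were left.

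**Figure D2:**
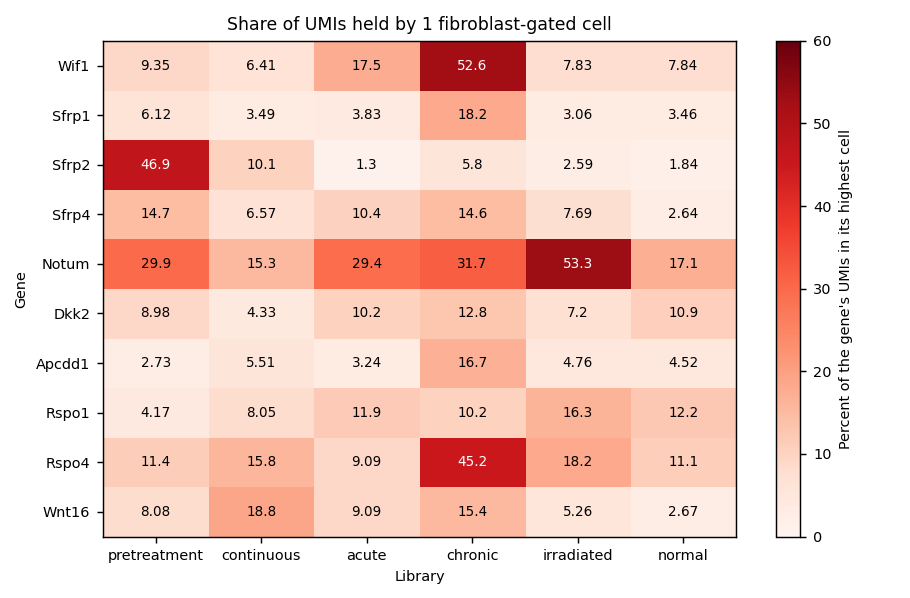
Percent of a gene's UMIs in fibroblast-gated cells that came from its highest single cell, for each of the 10 genes (rows) and 6 libraries (columns), darker red for more. The highest shares were Notum in irradiated at 53.3% of 15 UMIs, Wif1 in chronic at 52.6%, Sfrp2 in pretreatment at 46.9% and Rspo4 in chronic at 45.2%.

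The first comparison set irradiated against normal. A gene was counted as higher or lower where its CPM ratio was past 1.5-fold, its interval left out 1, and the 2 sums held at least 20 UMIs. Of the 10 genes 7 were lower and 0 higher, where 6.06% of all genes tested were lower and 4.07% higher. The median log2 ratio of the 10 was -1.02, against -0.05 over all genes tested. Wnt16 was 3.72-fold lower (2.22 to 6.51) and Sfrp4 was 2.52-fold lower (2.21 to 2.88). Wif1 was 2.50-fold lower (2.02 to 3.13), Notum was 2.20-fold lower (1.17 to 4.33) and Rspo1 was 2.15-fold lower (1.48 to 3.15). Without the highest cells Notum was 3.90-fold lower (1.67 to 10.5), from 7 UMIs in irradiated and 29 in normal. Sfrp2 was 1.92-fold lower (1.83 to 2.03) and Apcdd1 was 1.87-fold lower (1.57 to 2.24). The genes counted as lower held inhibitors, the R-spondin Rspo1 and the ligand Wnt16. Sfrp1 was 1.30-fold higher (1.18 to 1.43), and Dkk2 was 1.21-fold higher (1.00 to 1.45), both under the 1.5-fold limit. Without cells holding 3 markers of a second class Dkk2 was counted as higher, at a log2 ratio of 0.90 against 0.27 with them, and that of Wif1 was -0.73 against -1.32. Without cells holding a Cxcl5 UMI the log2 ratio of Notum was -0.55 and no longer counted. With each cell thinned to 1000 UMIs, 7 genes had at least 20 UMIs and 4 of these were lower. The share over all genes was not computed under this or any other alternative setting of this report. Markers of other classes differed between the libraries too, as 48.5% of fibroblast-gated cells in irradiated and 37.2% in normal had 3 or more neutrophil markers, and 28.4% and 16.2% had 3 or more macrophage or monocyte markers. Summed over the lists, the neutrophil markers had 4123 CPM in irradiated with none at 0, against 3659.6 CPM in normal with none at 0, and the macrophage or monocyte markers 893 CPM in irradiated with none at 0, against 784 CPM in normal with none at 0. Without all cells holding 3 markers of a second class, 5 of the 9 genes with at least 20 UMIs were counted as lower.

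Pretreatment against irradiated had 8 of the 10 genes higher and 1 lower, but this library differed broadly, with 19.6% of all genes tested higher and 19.9% lower. The median log2 ratio of the 10 was 2.19, against 0.03 over all genes tested. Notum was 19.2-fold higher (11.3 to 34.9), Rspo1 was 16.7-fold higher (12.2 to 23.4) and Apcdd1 was 11.4-fold higher (9.77 to 13.3). Without the highest cells Notum was 28.8-fold higher (13.6 to 72.9). Wnt16 was 7.45-fold higher (4.53 to 12.9), Dkk2 was 4.59-fold higher (3.97 to 5.31) and Rspo4 was 4.55-fold higher (2.26 to 9.93). Sfrp4 was 2.99-fold higher (2.61 to 3.44) and Wif1 was 2.66-fold higher (2.11 to 3.37). In pretreatment 641 of the 653 Sfrp4 UMIs lay in cells with a Pi16 or Dpp4 UMI, which were 396 of 574 fibroblast-gated cells there and 829 of 1853 in irradiated. In cells of no gate the log2 ratio of Sfrp4 was -3.99. Sfrp2 was 8.40-fold lower (7.20 to 9.85), and the log2 ratio was -3.95 without the highest cell of each library, against -3.07 with it. Sfrp1 was 1.10-fold higher (0.993 to 1.21). With each cell thinned to 1000 UMIs, 7 genes had at least 20 UMIs, of which 4 were higher and 1 lower. Without cells holding a Cxcl5 UMI the log2 ratio of Wif1 was 0.01. After thinning Wif1 was no longer counted either, with a log2 ratio of 0.31 (-0.83 to 1.35).

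In pretreatment, a part of the UMIs of Wif1, Notum and Dkk2 lay in a few cells that also carried markers of other classes. The 31 fibroblast-gated cells with at least 3 pericyte or smooth muscle markers were 5.40% of these cells and held 11.3% of fibroblast UMIs and 45.3% of the Wif1 UMIs. The 39 cells with at least 3 vascular endothelial markers were 6.79% of these cells and held 13.9% of fibroblast UMIs. They held 73.1% of the Notum UMIs and 31.5% of the Dkk2 UMIs. The 18 cells with 3 macrophage or monocyte markers held 7.62% of fibroblast UMIs and 66.7%, 21.5% and 22.7% of Notum, Wif1 and Dkk2. For the 17 with 3 keratinocyte markers these shares were 8.17%, 41.8%, 28.0% and 22.7%. A cell can be in several of these groups. The cell with most Notum UMIs had 72977 UMIs in all, with 10 fibroblast, 3 keratinocyte and 3 macrophage markers. As whole lists, the 10 pericyte or smooth muscle markers summed to 115 CPM in pretreatment with none at 0, against 210 in irradiated with none at 0. The 10 vascular endothelial markers summed to 143 CPM in pretreatment with 1 at 0, against 103 in irradiated with none at 0. Macrophage or monocyte markers summed to 91.7 CPM in pretreatment and 893 in irradiated, and keratinocyte markers to 71.7 and 128, none at 0. With all cells holding 3 markers of a second class removed from both libraries, the log2 ratio of Wif1 was -0.30, against 1.41 with them. That of Notum was 2.40, that of Dkk2 0.96, that of Rspo1 4.00 and that of Apcdd1 3.08, against 4.26, 2.20, 4.06 and 3.51 with them.

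Continuous against irradiated had 6 of the 10 genes higher and 1 lower, where 11.8% of all genes tested were higher and 13.2% lower. The median log2 ratio of the 10 was 1.71, against 0.01 over all genes tested. Notum was 16.5-fold higher (9.68 to 30.1), Rspo1 was 8.63-fold higher (6.21 to 12.2) and Wif1 was 8.11-fold higher (6.63 to 9.99). Without the highest cells Notum was 29.9-fold higher (14.1 to 75.7), from 133 UMIs in continuous and 7 in irradiated. Dkk2 was 6.25-fold higher (5.44 to 7.21), Apcdd1 was 3.93-fold higher (3.31 to 4.67) and Rspo4 was 2.72-fold higher (1.23 to 6.32). Sfrp2 was 1.98-fold lower (1.82 to 2.16), and its log2 ratio was -1.96 without cells holding 3 markers of a second class, -2.06 after thinning and -2.60 without cells holding a Cxcl5 UMI, against -0.99 over all. Sfrp4 was 1.45-fold lower (1.18 to 1.78), Sfrp1 was 1.18-fold higher (1.07 to 1.31) and Wnt16 was 1.32-fold higher (0.637 to 2.72), and all 3 were counted in neither direction. With each cell thinned to 1000 UMIs, 3 of 6 genes with at least 20 UMIs were higher and 1 lower, with log2 ratios of 2.27 (1.59 to 2.97) for Wif1, 2.49 (1.87 to 3.13) for Dkk2 and 1.72 (1.03 to 2.42) for Apcdd1. The cells behind these values were not free of other classes, as 46.7% of fibroblast-gated cells in continuous and 48.5% in irradiated had 3 or more neutrophil markers, against 0% in pretreatment. With all cells holding 3 markers of a second class removed, the log2 ratios of Wif1, Dkk2 and Apcdd1 were 2.85, 2.02 and 1.71, against 3.02, 2.64 and 1.97 with them.

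Chronic against irradiated had 8 of the 10 genes higher and 0 lower, where 8.78% of all genes tested were higher and 7.88% lower. The median log2 ratio of the 10 was 1.54, against 0.04 over all genes tested. Wif1 was 12.1-fold higher (9.87 to 15.0), with a log2 ratio of 2.64 without the highest cell and 3.60 with it. Rspo4 was 8.80-fold higher (4.31 to 19.4), Notum was 8.54-fold higher (4.63 to 16.6), Rspo1 was 4.29-fold higher (2.84 to 6.51) and Apcdd1 was 3.95-fold higher (3.25 to 4.81). Without the highest cells Rspo4 was 5.90-fold higher (2.49 to 15.0) and Notum was 12.5-fold higher (5.33 to 33.9). Sfrp4 was 1.92-fold higher (1.60 to 2.31), and Sfrp1 and Sfrp2 were each 1.65-fold higher (1.48 to 1.84 and 1.53 to 1.77). Without the highest cell the log2 ratio of Sfrp1 was 0.48, under the 1.5-fold limit, and 7 genes were counted as higher. Sfrp1 was also under that limit with the next class at most 0.5 of the top share, at 0.44, after thinning, at 0.25, and with the mean of per-cell CPM, at 0.45. The log2 ratio of Sfrp2 was 0.29 without cells holding a Cxcl5 UMI. Dkk2 was 1.46-fold higher (1.16 to 1.83) and Wnt16 was 2.14-fold higher (0.970 to 4.56), both counted in neither direction. The log2 ratio of Dkk2 was -0.27 without cells holding 3 markers of a second class, against 0.55 with them, and it was past 1.5-fold under the stricter cell filter, at 0.63, and with a gate of 2 markers, at 0.70. That of Wif1 was 1.82 without cells holding 3 markers of a second class. With each cell thinned to 1000 UMIs, 4 of 6 genes with at least 20 UMIs were higher, and the log2 ratio of Wif1 was 1.64 (0.76 to 2.49). Of fibroblast-gated cells 19.9% in chronic and 48.5% in irradiated had 3 or more neutrophil markers, and 17.4% and 28.4% had 3 or more macrophage or monocyte markers. The keratinocyte markers, of a class that also held Wif1, Sfrp1 and Apcdd1, summed to 472 CPM in chronic with 1 at 0, against 128 CPM in irradiated with none at 0. The 11 fibroblast-gated cells of chronic with 3 or more keratinocyte markers held 0 of 447 Wif1, 8 of 484 Sfrp1 and 6 of 239 Apcdd1 UMIs. The 70 with 3 or more macrophage or monocyte markers held 247 of the 447 Wif1 UMIs, 235 of them in the highest cell. Without all cells holding 3 markers of a second class, 7 of the 8 genes with at least 20 UMIs were counted as higher in chronic. Chronic was the one patch library in which Sfrp2 was counted as higher than in irradiated. Both of these libraries held hashtag antibodies.

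Acute against irradiated had 0 of the 10 genes higher and 0 lower, where 2.96% of all genes tested were higher and 1.56% lower. The median log2 ratio of the 10 was 0.19, against 0.05 over all genes tested. Wif1 was 1.38-fold higher (1.07 to 1.78), Sfrp2 was 1.37-fold higher (1.29 to 1.45) and Dkk2 was 1.27-fold lower (1.04 to 1.55). The Wif1 direction did not hold, with log2 ratios of -0.30 without cells holding 3 markers of a second class, -0.38 with the next class at most 0.5 of the top share and -0.43 after thinning, against 0.47 over all fibroblast-gated cells. Dkk2 was counted as lower under the first 2 of these settings, at -0.85 and -0.63. With the mean of per-cell CPM both Dkk2, at -0.69, and Notum, at -0.63, were past the limit on the lower side. Of fibroblast-gated cells 35.5% in acute and 48.5% in irradiated had 3 or more neutrophil markers. For Notum, Rspo4 and Wnt16 the ratios were 1.26 (0.592 to 2.71), 1.11 (0.437 to 2.83) and 1.29 (0.665 to 2.52), and these intervals hold 1.5-fold in both directions, so a difference of that size is not excluded. Those of Wif1, Rspo1 (0.693 to 1.70) and Dkk2 hold it in 1 direction. Without the highest cells Notum had 1.28 CPM in acute and 0.671 in irradiated, from 12 and 7 UMIs, under the minimum of 20.

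All 5 comparisons share the irradiated library, so they are not independent of each other. It was the tested library against normal and the reference in the 4 patch comparisons. A low value in irradiated alone would thus make a gene lower against normal and higher in the patch comparisons.

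**Figure D3:**
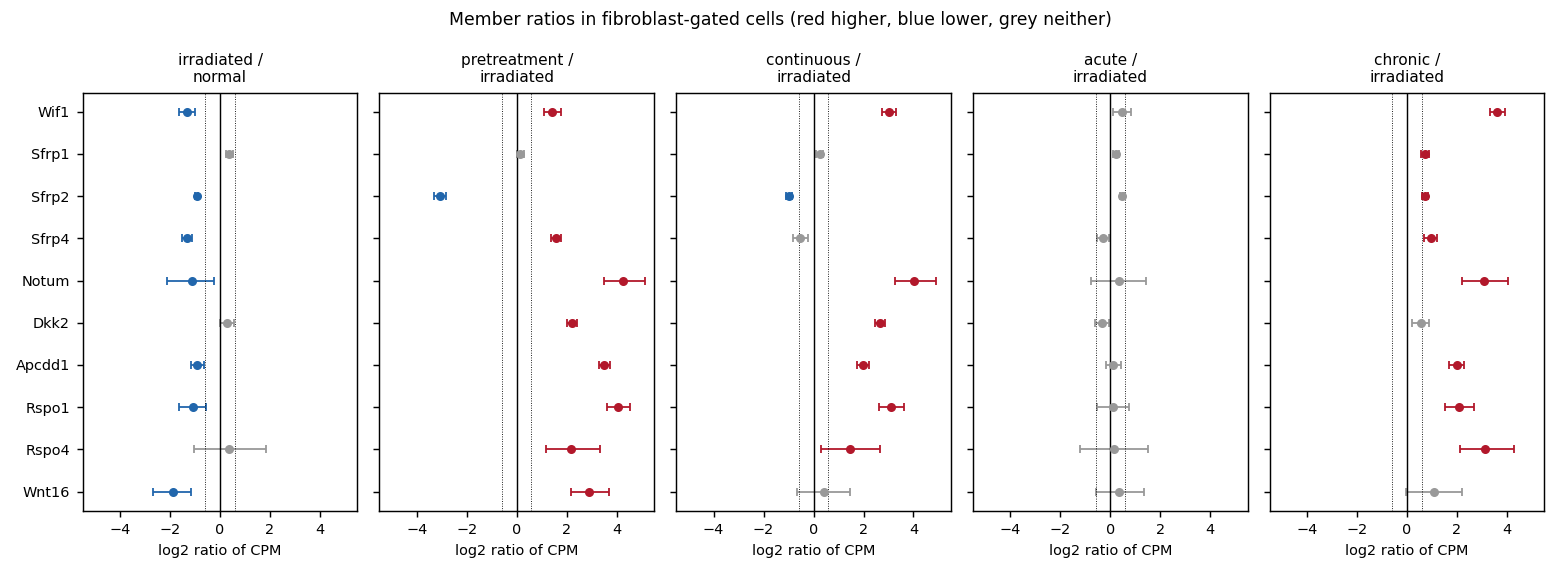
Log2 ratio of CPM in fibroblast-gated cells for the 10 genes (rows) in the 5 comparisons (panels), with 95% intervals for counting error, a solid line at no difference and dotted lines at 1.5-fold. Red marks genes counted as higher, blue lower and grey neither. In acute against irradiated all 10 are grey, and Sfrp2 is blue in irradiated against normal and in pretreatment and continuous against irradiated.

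Other genes of the pathway were read in the same cells from 5 lists, namely 20 ligands and ligand-processing genes, 22 receptors, 10 further modulators, 11 transducers and 10 targets. Unlike those of the members, their ratios were not computed after thinning, without the highest cell or without cells holding markers of a second class. Against normal, irradiated had 3 of 10 ligand genes, 3 of 18 receptors and 2 of 5 further modulators lower and none of them higher, with the target Ccnd1 as the single gene higher, where 6.06% of all genes tested were lower and 4.07% higher. Wnt6 was 3.41-fold lower (1.52 to 8.64) at 0.766 CPM in irradiated and 2.61 in normal, and Porcn was 2.17-fold lower (1.42 to 3.37) at 3.16 CPM in irradiated and 6.85 in normal. Porcn is the enzyme that adds the lipid to Wnt. Sostdc1 was 3.39-fold lower (1.21 to 11.7) at 0.479 CPM in irradiated and 1.62 in normal, and Rspo3, another R-spondin, was 2.00-fold lower (1.66 to 2.42). Of receptors, Fzd5 was 1.62-fold lower (1.38 to 1.90) and Lrp6 was 1.51-fold lower (1.36 to 1.68). Ccnd1, a cell cycle gene, was 2.27-fold higher (1.94 to 2.66). The other 8 targets tested were counted in neither direction.

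Target genes were counted as higher in 7 of 10 genes tested in pretreatment, 4 of 9 in continuous, 4 of 9 in chronic and 0 of 8 in acute, each against irradiated, and none was counted as lower. Of all genes tested 19.6% were higher in pretreatment, 11.8% in continuous, 8.78% in chronic and 2.96% in acute. In pretreatment, Tnfrsf19 was 19.9-fold higher (10.5 to 42.4) at 19.0 CPM in pretreatment and 0.957 in irradiated, and Sp5 was 16.8-fold higher (6.14 to 64.2) at 6.43 CPM in pretreatment and 0.383 in irradiated. In continuous, Lef1 was 7.51-fold higher (5.07 to 11.4) at 22.3 CPM in continuous and 2.97 in irradiated, and Nkd1 was 3.84-fold higher (2.42 to 6.26) at 9.93 CPM in continuous and 2.58 in irradiated. In chronic, Lef1 was 4.74-fold higher (2.95 to 7.71) at 14.1 CPM in chronic and 2.97 in irradiated, and Tnfrsf19 was 4.06-fold higher (1.65 to 10.3) at 3.89 CPM in chronic and 0.957 in irradiated. Lef1 is a transcription factor that pairs with beta-catenin, and Nkd1 is a feedback inhibitor inside the cell. Axin2, a widely used readout of the pathway, was counted as higher in pretreatment, where it was 3.65-fold higher (2.94 to 4.56), and was 1.25-fold higher (0.941 to 1.66) in continuous and 1.34-fold higher (0.939 to 1.87) in chronic, counted in neither direction. Axin2 was named after its values were seen.

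Of ligand genes 5 of 10 were counted as higher and 1 lower in pretreatment, 3 and 4 of 10 in continuous, 1 and 0 of 10 in acute and 3 and 1 of 10 in chronic. Receptors numbered 6 higher and 1 lower of 18 in pretreatment, 5 and 0 of 18 in continuous, 0 and 0 of 18 in acute and 4 and 1 of 17 in chronic. Further modulators numbered 4 higher and 1 lower of 6 in pretreatment, 3 and 0 of 5 in continuous, 0 and 0 of 4 in acute and 3 and 0 of 5 in chronic. Of all genes tested 19.6% were higher and 19.9% lower in pretreatment, 11.8% and 13.2% in continuous, 2.96% and 1.56% in acute and 8.78% and 7.88% in chronic. Wnt6 was 12.7-fold higher (6.10 to 30.5) in pretreatment, 8.65-fold higher (4.03 to 21.3) in continuous and 5.47-fold higher (2.14 to 15.0) in chronic, each against irradiated. Wnt2 was 2.16-fold lower (1.61 to 2.93), 4.78-fold lower (3.14 to 7.58) and 1.63-fold lower (1.14 to 2.38) in the same comparisons. Porcn was the 1 gene of all 5 lists counted in acute, where it was 2.09-fold higher (1.35 to 3.29). Of the further modulators, Sostdc1, a secreted inhibitor of Wnt and BMP signals, was 25.5-fold higher (10.5 to 80.6) in continuous and 22.5-fold higher (8.80 to 73.4) in chronic, against a level in irradiated of 0.479 CPM. Draxin was 17.3-fold lower (11.11 to 28.7) in pretreatment, at 2.74 CPM in pretreatment and 47.5 CPM in irradiated. Of receptors, Lgr5, which binds R-spondins, was 7.02-fold higher (5.36 to 9.31) in pretreatment, and Lgr6 was 7.86-fold higher (4.29 to 15.5) in continuous. Of transducers, 5 of 11 were counted as higher in pretreatment, 2 of 11 in continuous, 1 of 11 in chronic and none in acute, where 19.6%, 11.8%, 8.78% and 2.96% of all genes tested were higher. The counts in continuous, chronic and acute are thus near the share over all genes.

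Within fibroblast-gated cells the set split by subset. Cells were read by 3 gates on genes that are not members, namely a UMI of Pappa2, Coch or Slc26a7, a UMI of Cxcl5, or a UMI of Pi16 or Dpp4. The gate genes were taken from groupings made with earlier results of these data, and Pappa2, Coch and Slc26a7 were grouped there together with Wif1, so a high Wif1 level in that gate follows from the choice and is a description. A deep cell passes a gate more easily than a shallow one, so gate shares and depth are linked. A Pappa2, Coch or Slc26a7 UMI was found in 187 of 574 fibroblast-gated cells of pretreatment and 256 of 660 of continuous. Such cells were 78 of 402 in chronic, 135 of 2278 in acute, 152 of 1853 in irradiated and 158 of 2484 in normal. For Cxcl5 the counts were 248 in continuous, 1150 in acute, 165 in chronic, 1065 in irradiated and 1216 in normal, with too few in pretreatment. How far subset shares enter the sums over all fibroblast-gated cells was not tested. In these gate comparisons higher or lower means only that the interval left out 1, with at least 20 UMIs and no 1.5-fold limit. The share of all genes that meets this rule was not computed. For the gate on Pappa2, Coch or Slc26a7, Wif1 had 52.1 CPM with against 12.9 CPM without in pretreatment, 170.5 CPM with against 30.2 CPM without in continuous and 92.4 CPM with against 9.80 CPM without in acute. It had 591 CPM with against 20.5 CPM without in chronic, 53.1 CPM with against 7.38 CPM without in irradiated and 259 CPM with against 12.6 CPM without in normal. The gated cells were thus higher in 6 of 6 libraries, by 4.03 to 28.8-fold, and by 3.62 to 18.1-fold without the highest cell of each library. The highest cell of chronic lay in the gate, and without it the ratio there was 11.9 (8.70 to 16.5). Dkk2 was likewise higher in 6 of 6, by 3.44 to 22.2-fold, and Rspo1 in 6 of 6, by 1.32 to 29.0-fold. Notum was higher in the 4 libraries with at least 20 UMIs, with ratios of 45.3 (20.4 to 125) in pretreatment, 107 (29.0 to 887) in continuous, 78.7 (20.4 to 673) in chronic and 33.6 (15.8 to 76.0) in normal. The ratios of continuous and chronic rest on 2 UMIs outside the gate. Its level outside the gate was 0.520 to 1.41 CPM in these 4 libraries, from 2 to 11 UMIs. Apcdd1 was higher in 5 of 6 libraries, by 3.56 to 7.13-fold, and lower in pretreatment, at a ratio of 0.861 (0.774 to 0.956). Sfrp2 was lower in the gated cells in 6 of 6 libraries, at 0.305 to 0.700 of the level outside. Without the highest cell, which lay outside the gate, the ratio in pretreatment turned to 2.23 (1.45 to 3.48), and the other 5 stayed under 1.

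Sfrp4 was lower in the cells with a Pappa2, Coch or Slc26a7 UMI in 4 of 6 libraries, with ratios of 0.506 (0.423 to 0.603) in pretreatment, 0.508 (0.339 to 0.748) in continuous, 0.447 (0.177 to 0.935) in acute and 0.392 (0.223 to 0.646) in chronic, and its interval spanned 1 in irradiated and normal. In cells with a Cxcl5 UMI, Wif1, Dkk2, Apcdd1, Rspo1 and Sfrp4 were lower in 5 of 5 libraries with enough such cells. Sfrp2 was higher in 4 of 5, by 1.10 to 4.50-fold, and lower in irradiated, at 0.910 (0.830 to 0.999). These directions were the same without the highest cells, which moved the ratio in chronic to 0.160 (0.105 to 0.237) for Wif1 and 0.145 (0.0743 to 0.261) for Dkk2, against 0.0708 (0.0472 to 0.103) and 0.310 (0.195 to 0.478) with them. Wif1 had 4.45 CPM with against 27.0 CPM without in irradiated and 10.6 CPM with against 56.0 CPM without in normal. Sfrp2 had 161 CPM with against 35.8 CPM without in continuous, the widest ratio at 4.50-fold, and 405 CPM with against 368 CPM without in normal. Cells with a Pi16 or Dpp4 UMI stood out for Sfrp4, which was higher in 5 of 6 libraries, by up to 11.6-fold in pretreatment. Its level was 107 CPM with against 9.23 CPM without in pretreatment, 38.9 CPM with against 19.3 CPM without in irradiated and 110.1 CPM with against 30.1 CPM without in normal. For Sfrp1 the Pi16 or Dpp4 gate made a difference of 6.12-fold in pretreatment, with 113 CPM with against 18.5 CPM without. In the other 5 libraries that ratio ran from 0.833 in normal to 1.12 in continuous. For the gate on Pappa2, Coch or Slc26a7, Sfrp1 was higher in 5 of 6 libraries, by 1.52 to 2.75-fold, and its interval spanned 1 in acute. Without the highest cell the ratio in chronic was 1.56 (1.24 to 1.96) for that gate and 0.722 (0.587 to 0.888) for Pi16 or Dpp4.

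**Figure D4:**
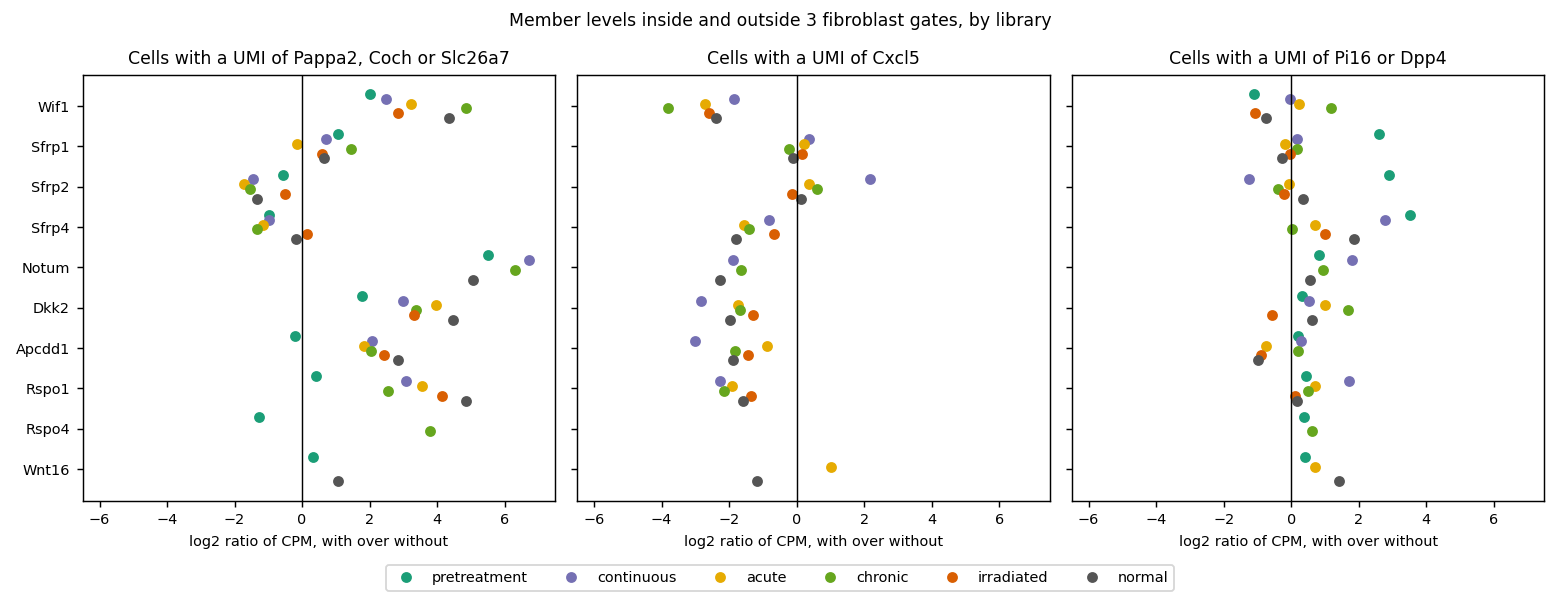
Log2 ratio of CPM in fibroblast-gated cells with over without a UMI of the gate genes, for the 10 genes (rows), 3 gates (panels) and 6 libraries (colours), where both sums together held at least 20 UMIs and neither was 0. Wif1, Dkk2, Rspo1 and Notum lie right of 0 in the left panel and Sfrp2 left of it, the pretreatment point of Sfrp2 only with its highest cell, while Wif1, Dkk2, Apcdd1, Rspo1 and Sfrp4 lie left of 0 in the middle panel.

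Inside subsets some differences between libraries stayed, and others narrowed or turned. In cells with a Pappa2, Coch or Slc26a7 UMI, Wif1 had 52.1 CPM in pretreatment, 170 in continuous and 53.1 in irradiated. Dkk2 had 187, 303 and 140 CPM in the same cells and libraries, and Rspo1 had 80.2, 72.5 and 31.4. In cells of the Cxcl5 gate alone, Sfrp2 had 339 CPM in continuous and 249 in irradiated, the opposite order to that over all fibroblast-gated cells, from 77 cells in continuous and 485 in irradiated. In cells of no gate, Sfrp4 had 2.08 CPM in pretreatment and 33.2 in irradiated, from 2 and 48 UMIs, again the opposite order to that over all fibroblast-gated cells. In cells of no gate, Wif1 had 42.7 CPM in pretreatment, 37.6 in continuous, 21.9 in acute, 39.1 in chronic, 26.9 in irradiated and 53.4 in normal, a narrower spread than over all fibroblast-gated cells. In cells of the Pi16 or Dpp4 gate alone, Wif1 had 4.02 CPM in pretreatment and 10.3 in irradiated. Apcdd1 kept its high level in pretreatment in the groups given here. It had 228 CPM in cells of the Pi16 or Dpp4 gate alone, 191 in cells of several gates and 195 in cells of none. In irradiated the same groups had 16.6, 12.6 and 24.9 CPM. Cells of the Cxcl5 gate alone and of the Pappa2, Coch or Slc26a7 gate alone were not compared between these libraries.

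Some members were found in the same cells at 1000 UMIs per cell. In continuous, 44.9% (22 of 49) of cells with a Wif1 UMI also had a Dkk2 UMI, against 8.56% (50 of 584) of cells without. In normal the same shares were 16.1% (9 of 56) and 1.27% (28 of 2202). For Apcdd1 in normal they were 35.7% (20 of 56) of cells with a Wif1 UMI and 2.82% (62 of 2202) of cells without. Rspo1 was found in 9.76% (8 of 82) of cells with an Apcdd1 UMI in normal, against 0.460% (10 of 2176) without. Notum was found in 8 of 72 cells with a Dkk2 UMI in continuous, against 0.713% (4 of 561) without. In irradiated, Apcdd1 was found in 12.5% (4 of 32) of cells with a Dkk2 UMI, against 1.41% (23 of 1637) without. Sfrp2 gave another picture, found in 5.36% (3 of 56) of cells with a Wif1 UMI in normal, against 22.8% (503 of 2202) of cells without. It was found in 0 of 26 such cells in acute, with an interval up to 13.2%, against 16.7% (335 of 2012), and in 0 of 23 in irradiated, with an interval up to 14.8%, against 13.4% (220 of 1646). The shares were 15.4% (2 of 13) and 1.13% (6 of 532) in pretreatment, 4.08% (2 of 49) and 3.77% (22 of 584) in continuous and 2 of 18 and 19.5% (73 of 374) in chronic. In acute, Dkk2 was found in 1 of 26 cells with a Wif1 UMI, against 1.64% (33 of 2012) without. These pairs were picked after the shares were seen. The shares include cells holding markers of a second class and were not computed without them.

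Over 28 sums of fibroblast subset and library, the correlation of log2 levels was highest between Apcdd1 and Rspo1 (Pearson r = 0.89), Dkk2 and Rspo1 (0.86) and Notum and Dkk2 (0.81). Sfrp2 ran against Apcdd1, Rspo1 and Dkk2, at -0.70 each. The sums share libraries and depth, and hold the highest cells, so these values describe likeness and carry no test. Among 4951 other genes, those most like Notum were Lef1 (0.94), Prlr (0.93) and Igfbp3 (0.92). Those most like Dkk2 were Lamc3 (0.94), Bmp4 (0.92) and Gldn (0.90), and those most like Rspo1 were Bmp4 (0.94), Lamc3 (0.92) and Ltbp1 (0.91). Lamc3, a laminin chain, was also among the 3 most like Apcdd1, with Tmem132c (0.92), Lamc3 (0.91) and Ash1l (0.90). Wif1 was most like Enpp2 (0.87), Hhip (0.85) and Col23a1 (0.83), Sfrp4 like Chrdl1 (0.75), Tmem100 (0.75) and Fhl1 (0.74) and Sfrp2 like Lgi2 (0.90), Plat (0.89) and Man2a1 (0.89). Sfrp1 had the weakest likeness, to Lamb1 (0.68), Ace (0.67) and Vdac3 (0.67). Wnt16 was most like Smarca2 (0.85), Akr1c14 (0.81) and Nfix (0.80), and Rspo4 had under 200 UMIs and was not compared.

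Keratinocyte-gated cells also held Wif1 and Sfrp1. Wif1 had 10.2 CPM in pretreatment, 25.7 in continuous, 39.8 in acute, 16.8 in chronic, 45.7 in irradiated and 51.0 in normal. Normal and irradiated were highest here, whereas irradiated was lowest in fibroblast-gated cells. Irradiated against normal was 1.12-fold lower (0.779 to 1.59) for Wif1 and 1.22-fold higher (0.977 to 1.53) for Sfrp1, both counted in neither direction. Apcdd1 was 1.88-fold lower (1.20 to 2.96), where 5.34% of all genes tested in these cells were lower and 6.88% higher. Against irradiated, Wif1 was 4.47-fold lower (2.47 to 8.76) in pretreatment, 1.78-fold lower (1.30 to 2.42) in continuous and 2.72-fold lower (1.91 to 3.89) in chronic. In these 3 comparisons 30%, 20.7% and 16.9% of all genes tested were lower, and 18.7%, 13.6% and 6.25% higher. The Wif1 sums held 13 UMIs of 86 cells in pretreatment, 92 of 379 in continuous, 57 of 356 in chronic and 80 of 292 in irradiated. No ratio in keratinocyte-gated or vascular endothelial-gated cells was computed after thinning, without the highest cell or without cells holding markers of a second class. Apcdd1 was 3.15-fold lower (1.501 to 7.39) in pretreatment against irradiated, from 9 UMIs in pretreatment and 39 in irradiated, while it was counted as higher in fibroblast-gated and vascular endothelial-gated cells of pretreatment. In fibroblast-gated cells of continuous and chronic Wif1 was higher than in irradiated. In those of pretreatment it was higher too, but not counted after thinning and at a log2 ratio of -0.30 without cells holding markers of a second class. These differences between classes were not tested.

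Sfrp1 in keratinocyte-gated cells had 40.8 CPM in pretreatment, 61.5 in continuous, 72.4 in acute, 68.6 in chronic, 136 in irradiated and 112 in normal. It was lower than in irradiated in all 4 patch libraries, by 1.89-fold in acute, where 6.74% of all genes tested were lower and 4.03% higher, up to 3.34-fold in pretreatment. Each keratinocyte-gated cell was put in the keratin group, basal, differentiating, or follicle or wound, that held most of its summed keratin UMIs. Cells put in the basal group (Krt5, Krt14 and Krt15) had 160.1 CPM of Sfrp1 in irradiated and 124 in normal. Those put in the follicle or wound group (Krt17, Krt79 and Krt6a) had 46.3 CPM in irradiated. No ratio between libraries was computed within a keratin group, and the mix of these groups was not compared between libraries. Schwann-gated cells, 55 to 65 per library, held Sfrp1 at 125 CPM in continuous, 95.03 in acute and 156 in chronic, from 11, 10 and 24 UMIs.

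Vascular endothelial-gated cells held Dkk2 and Apcdd1. Dkk2 had 28.4 CPM in pretreatment, 5.48 in continuous, 9.29 in acute, 18.5 in chronic, 28.7 in irradiated and 17.6 in normal, from 5 to 32 UMIs. Neutrophil-gated cells, which should lack the gene, held 7.46 CPM in continuous and 2.79 in acute, so the endothelial value of continuous is read as background and no fold is given for it. Endothelial Dkk2 was 3.09-fold lower (1.45 to 7.16) in acute against irradiated, where 2.66% of all genes tested were lower and 2.14% higher. In continuous 15.9% of all genes tested were lower than in irradiated and 9.61% higher. In irradiated against normal and in chronic against irradiated neither Dkk2 nor Apcdd1 was counted, where 6.28% and 5.72% of all genes tested were higher and 3.64% and 10.7% lower. Apcdd1 in vascular endothelial-gated cells ranged from 24.7 CPM in normal to 52.7 in pretreatment, and pretreatment against irradiated was 1.90-fold higher (1.13 to 3.26), where 12.6% of all genes tested were higher and 21.2% lower. Apcdd1 was also found in adipocyte-gated cells, at 70.6 CPM in acute and 62.1 in irradiated.

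**Figure D5:**
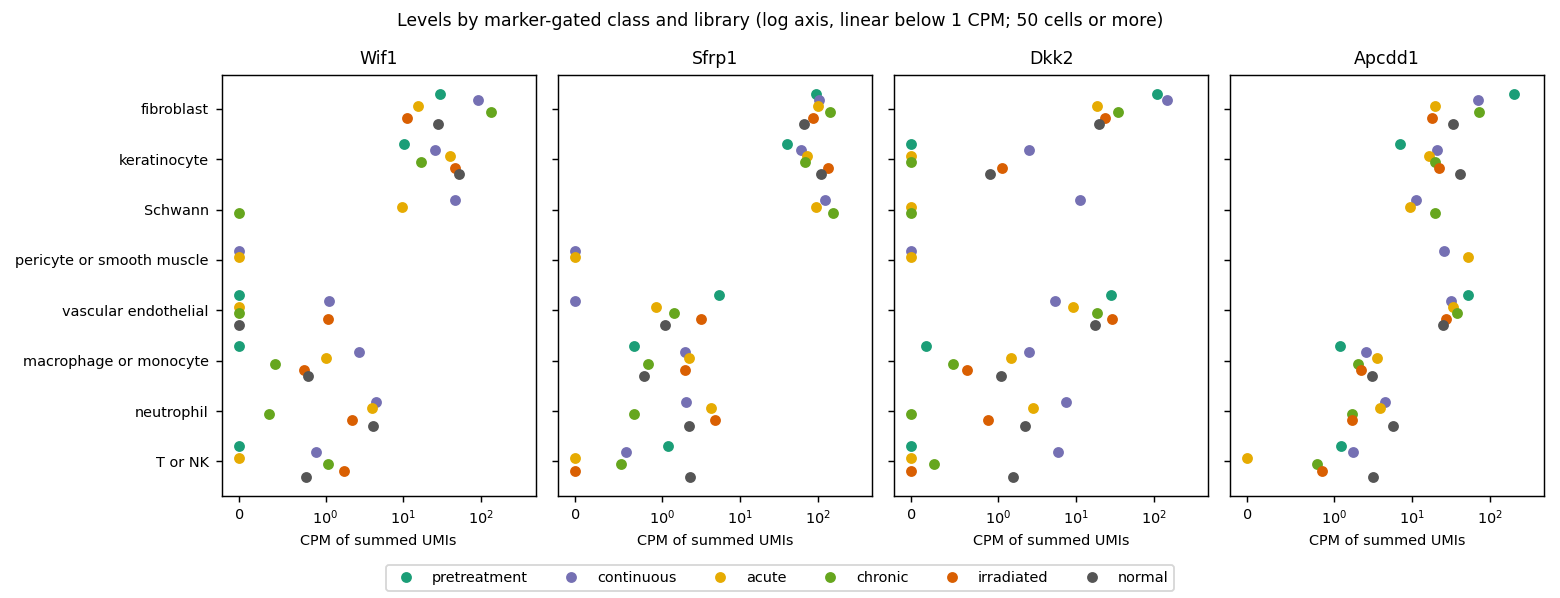
CPM of Wif1, Sfrp1, Dkk2 and Apcdd1 (panels, log axis that is linear below 1 CPM) in marker-gated cell classes (rows) of the 6 libraries (colours), for classes with at least 50 cells in a library. Wif1 and Sfrp1 are high in fibroblast and keratinocyte-gated cells, Sfrp1 also in Schwann-gated cells, and Dkk2 and Apcdd1 also in vascular endothelial-gated cells.

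The remaining members had low levels in the other classes shown. Rspo4 had 0 UMIs in every other class shown except 1 UMI in neutrophil-gated cells of continuous. Sfrp4 stayed at or under 1.82 CPM in keratinocyte-gated cells and at or under 1.39 CPM in macrophage or monocyte-gated cells. Sfrp2 reached 9.32 CPM in neutrophil-gated and 9.12 CPM in macrophage or monocyte-gated cells of normal, the library where it was highest in fibroblast-gated cells. Notum and Rspo1 had 14.2 and 9.46 CPM in keratinocyte-gated cells of continuous put in the Krt17, Krt79 and Krt6a group, from 12 and 8 UMIs. Both had 0 in that group of the acute, chronic and irradiated libraries. All 12 Notum UMIs came from 1 cell and the 8 Rspo1 UMIs from 2. Wnt16 had 6.28 CPM in keratinocyte-gated cells of pretreatment, from 8 UMIs, and at most 2.21 CPM in the other libraries.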

How the data were processed

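Single-cell RNA sequencing of 6 libraries was deposited as count matrices, made by the authors with Cell Ranger 6.0.0 per the file headers, whose values are UMI counts per gene and cell barcode and are not normalized. The submitters' processing notes also name Seurat 5.0.1 and a pig build, while all 32285 gene identifiers are mouse ones. The 10 genes and all lists were chosen with earlier results of these data known.

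Cells with at least 500 UMIs, 300 genes and at most 20% mitochondrial UMIs were kept, which left 1499 of 1811 barcodes in pretreatment, 8916 of 9862 in continuous, 24132 of 25052 in acute, 9180 of 9721 in chronic, 22123 of 23022 in irradiated and 17709 of 18869 in normal. Gene UMIs per library ranged from 18611144 to 54966435. Each cell took the class with the highest share of detected markers, at least 3, and ties stayed unassigned. Doublet calling with Scrublet had been planned. Its 1 run stopped at a time limit before all libraries were scored, and the share of acute that its automatic threshold marked was far from that in an earlier analysis of these data. It was dropped after this was seen, so doublets were kept, and cells with 3 markers of a second class were removed as an alternative. For each class of a library, UMIs were added up and given as CPM, with exact Poisson, binomial (Clopper-Pearson) and conditional binomial 95% intervals for counting error. With 1 library per label no test was possible. Likeness used log2(CPM + 5). The ratio code was run before use on simulated independent Poisson counts. Such counts leave out single cells that hold many UMIs, so the run cannot show whether the intervals are wide enough for those sums. Of the wider lists, up to 2 highest and 2 lowest genes counted per comparison were named, and exceptions are marked. Alternatives are listed in the closing section. Python 3.11.15, numpy 2.4.6, scipy 1.17.1, pandas 2.3.3 and matplotlib 3.10.9 were used.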

Additional observations from a re-analysis of the deposited data

How the results depend on the processing

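Counts of the 10 genes as higher and lower in fibroblast-gated cells were 0 and 7 in irradiated against normal, and, against irradiated, 8 and 1 in pretreatment, 6 and 1 in continuous, 0 and 0 in acute and 8 and 0 in chronic. Of 138 counts under settings listed in advance 105 stayed within 1.5 times these, and of 500 single ratios 41 changed sign, of which 8 were of genes counted as higher or lower. Of 48 counts and 180 ratios under alternatives chosen after seeing the data, 29 counts stayed and 21 ratios changed sign, 5 of them of counted genes. The moved counts and the turned ratios of counted genes follow by setting, against irradiated unless said otherwise, and the cause was not tested. Shares over all genes were computed for the main setting only. The counts under other settings, which differ in cells and UMIs, thus cannot be set against such a share. Gates at 2 UMIs, leaving out cells with a Cxcl5 UMI and leaving out the highest cell are the settings chosen after seeing the data. With each cell thinned to 1000 UMIs, genes higher numbered 4 in pretreatment, 3 in continuous, 4 in chronic, and genes lower numbered 4 in irradiated (against normal). With cells holding 3 markers of a second class removed, genes higher numbered 1 in irradiated (against normal), and genes lower numbered 1 in acute, and log2 ratios turned to -0.30 for Wif1 in pretreatment. With the next class at most 0.5 of the top share, genes lower numbered 1 in acute. With the mean of per-cell CPM, genes lower numbered 2 in acute. With a limit of 2-fold, genes higher numbered 5 in chronic, and genes lower numbered 0 in continuous. In cells of the Pi16 or Dpp4 gate alone, genes higher numbered 1 in irradiated (against normal), 3 in continuous, 2 in chronic, and genes lower numbered 3 in irradiated (against normal), 2 in pretreatment, and log2 ratios turned to 0.57 for Wif1 in irradiated (against normal), -1.36 for Wif1 in pretreatment. In cells of the Cxcl5 gate alone, genes higher numbered 1 in irradiated (against normal), 1 in continuous, 1 in acute, 4 in chronic, and genes lower numbered 3 in irradiated (against normal), 1 in acute, 1 in chronic, and log2 ratios turned to 0.44 for Sfrp2 in continuous, -0.0145 for Apcdd1 in continuous. In cells of several gates, genes higher numbered 2 in acute, and genes lower numbered 2 in continuous, 1 in acute, 1 in chronic, and log2 ratios turned to -0.65 for Sfrp4 in chronic. In cells of no gate, genes higher numbered 3 in pretreatment, 2 in continuous, 3 in chronic, and genes lower numbered 2 in irradiated (against normal), 3 in pretreatment, 2 in continuous, 1 in acute, and log2 ratios turned to -3.99 for Sfrp4 in pretreatment, -0.37 for Sfrp1 in chronic. With gates at 2 UMIs, in the Pi16 or Dpp4 gate, genes higher numbered 5 in pretreatment, 3 in continuous, 1 in acute, 1 in chronic, and genes lower numbered 3 in irradiated (against normal), and log2 ratios turned to 0.21 for Apcdd1 in irradiated (against normal), -1.07 for Wif1 in pretreatment. With gates at 2 UMIs, in the Cxcl5 gate, genes higher numbered 1 in irradiated (against normal), 1 in continuous, 2 in acute, 3 in chronic, and genes lower numbered 3 in irradiated (against normal), 1 in acute, and log2 ratios turned to 0.30 for Sfrp2 in continuous. With gates at 2 UMIs, in no gate, genes higher numbered 4 in pretreatment, 4 in chronic, and genes lower numbered 4 in irradiated (against normal), 2 in pretreatment, 2 in continuous, 1 in acute, 1 in chronic, and log2 ratios turned to -0.41 for Sfrp4 in pretreatment, -0.75 for Sfrp1 in chronic. Without cells holding a Cxcl5 UMI, genes lower numbered 2 in continuous. Under thinning 6 or 7 genes kept at least 20 UMIs, so fewer could be counted. A stricter cell filter, gates of 2 or 5 markers, centring on the median gene and no minimum of UMIs moved no count by more than 1.5 times. Leaving out the highest cell lowered the count in chronic to 7. Doublet removal with Scrublet was planned, but its 1 run stopped before all libraries were scored and no value of the 10 genes was computed with it, so doublets kept and removed were not compared. No paired analysis was possible because each label has 1 library. Depth limits Rspo4, Notum and Wnt16, with 9 to 41 UMIs in several libraries.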
